A study of Homo sapiens with 45 samples.

Results

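The genes described here are the AP-1 subunits JUN, JUNB, JUND, FOS, FOSB, FOSL1 and FOSL2 together with EGR1, IER2 and DUSP1, followed across 4 human T-cell acute lymphoblastic leukemia lines in which the BAF chromatin remodelling complex was inhibited or depleted. They were taken by symbol, 10 of the 38557 genes in each of the deposited TPM tables, and all 10 were found in both tables. AP-1 is a dimer of JUN family and FOS family proteins, which are basic leucine zipper transcription factors. JUN proteins can pair with each other or with a FOS protein, whereas FOS proteins need a JUN partner to bind DNA. In T cells AP-1 acts with NFAT downstream of the antigen receptor and MAP kinases, and several of these genes are immediate early genes, transcribed within minutes of a signal without new protein synthesis and shut off again soon after.

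Poly(A) RNA was sequenced in 45 libraries, 15 groups of 3, labelled as biological replicates. Treatment was with 1 uM BRM014, an inhibitor of the BAF ATPases SMARCA4 and SMARCA2, or with 0.01% DMSO, for 6 h in TALL-1, KOPT-K1 and CCRF-CEM and for 6 h or 8 d in Jurkat. Cas9-expressing Jurkat cells were transduced with guides to AAVS1 (gAAVS1, the control), ARID1A (gARID1A), ARID1A and ARID1B (gARID1A_1B), SMARCA4 (gSMARCA4) or SMARCA4 and SMARCA2 (gSMARCA4_A2). Puromycin selection lasted 4 days, and RNA of the guide groups was taken on day 10. All groups come from established lines of 1 cell type, and each line stands for 1 patient's disease only.

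Jurkat libraries held 29674228 to 47932949 reads on genes, recovered from TPM and gene length, with 20.0 to 24.9% of TPM mitochondrially encoded. Libraries of the remaining 3 lines held 19717414 to 27037622 reads, with 4.99 to 8.04% mitochondrially encoded. Jurkat and the other lines were prepared with different kits and were tested apart. T cell markers were present throughout, with all 10 of those in the tables at a mean of at least 1 TPM in every group except CCRF-CEM with BRM014 (9 of 10). The 8 myeloid markers summed to at most 0.966 TPM in any library. Mean SMARCA4 RNA was 97.5 TPM with gAAVS1, 44.2 with gSMARCA4 and 49.9 with gSMARCA4_A2, and ARID1B was 22.7 with gAAVS1 and 11.9 with gARID1A_1B. ARID1A was 94.4, 83.1 and 101 TPM with gAAVS1, gARID1A and gARID1A_1B, and SMARCA2 was 21.8 with gAAVS1 and 22.4 with gSMARCA4_A2. RNA levels therefore did not show depletion of ARID1A in the double guide or of SMARCA2, and they do not read out protein.

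Of the 9 genes with a RefSeq promoter entry (GRCh38.p14), the 250 bases upstream of the start were searched on both strands. The sequences below belong to JUN, JUND and EGR1. JUN fell far more in CCRF-CEM than in the other lines of its table, and JUND fell in all 3 of those lines. EGR1 had a higher mean than with gAAVS1 in every guide group, most with both double guides. JUN is known to act on its own promoter through a pair of sites that differ from the AP-1 consensus, and both were found by letters. The start used here is that of RefSeq. In GENCODE v29 the JUN transcript begins further out and all 250 bases lie in its exon, so "upstream" holds for the RefSeq start alone. For JUN only the 30 bases around each match are shown, at chr1:58784215-58784244 and chr1:58784096-58784125, minus strand. Capitals mark TTACCTCA, 186 to 179 bases upstream, and TGACATCA, 67 to 60 bases upstream.
JUN distal: gcagcggagcaTTACCTCAtcccgtgagcc
JUN proximal: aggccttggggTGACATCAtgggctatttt
JUND, at chr19:18281623-18281872 on the minus strand, carries in capitals the cyclic AMP response element TGACGTCA, a site that binds CREB and ATF factors as well as AP-1.
JUND: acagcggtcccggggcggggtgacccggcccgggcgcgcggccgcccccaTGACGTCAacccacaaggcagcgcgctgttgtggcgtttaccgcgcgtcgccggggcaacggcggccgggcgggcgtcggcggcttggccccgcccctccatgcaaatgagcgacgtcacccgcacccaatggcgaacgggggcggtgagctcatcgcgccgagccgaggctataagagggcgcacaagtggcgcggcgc
EGR1, at chr5:138465229-138465478 on the plus strand, carries in capitals a pair of CArG boxes, the site bound by serum response factor.
EGR1: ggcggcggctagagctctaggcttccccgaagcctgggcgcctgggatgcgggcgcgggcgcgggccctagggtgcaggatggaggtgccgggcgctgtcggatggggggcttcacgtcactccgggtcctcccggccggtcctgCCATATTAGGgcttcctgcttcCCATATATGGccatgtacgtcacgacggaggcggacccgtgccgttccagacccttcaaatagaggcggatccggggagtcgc
Over all 35116 promoter windows of this length, TTACCTCA was present in 0.644%, TGACATCA in 2.37%, TGACGTCA in 1.65% and a CArG box in 1.16%. TGACGTCA was also found upstream of DUSP1, 125 to 118 bases before its start. The consensus AP-1 site TGANTCA, present in 6.57% of all windows, was not among the letters of any of the 9 windows.

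In CCRF-CEM cells the genes moved in 1 direction at 6 h of BRM014, led by JUN. JUN stood at 76.5, 86.6 and 49.2 TPM in the 3 DMSO libraries and at 9.62, 10.0 and 10.5 TPM with BRM014. Every treated library was therefore below every control, and the treated libraries lay close together. The change was -2.66 ± 0.17 (SE) on the log2(TPM + 1) scale (6.33-fold, adjusted p = 1.03e-08, limma with Benjamini-Hochberg adjustment over all 16241 genes tested), the 20th largest fall among them. A gene is called higher or lower below at an adjusted p under 0.05 in this test. DMSO replicate 3 had the lowest JUN, JUNB, JUND, FOS, FOSL1, FOSL2, EGR1 and IER2 of its group. Without number 3 of both groups the JUN change was -2.93.

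The other JUN family subunits also fell in CCRF-CEM. JUNB, an AP-1 subunit that can oppose JUN at some promoters, went from 44.3, 52.5 and 42.5 to 26.3, 28.6 and 25.3 TPM (-0.77 ± 0.14, adjusted p = 0.000342). JUND, the most evenly expressed member of the family in most tissues, went from 176, 179 and 123 to 94.4, 96.2 and 83.6 TPM (-0.78 ± 0.11, adjusted p = 4e-05). Neither gene's groups overlapped. FOSL2, the FOS family member known as FRA2, fell from 9.28, 10.8 and 8.68 to 4.29, 4.67 and 3.94 TPM (-1.0 ± 0.18, adjusted p = 0.000293). IER2, an immediate early transcriptional regulator, was at 109, 119 and 77.7 TPM and then at 57.6, 62.6 and 43.5 (-0.88 ± 0.14, adjusted p = 0.000103). DUSP1, a phosphatase that switches off MAP kinases, went from 2.48, 2.16 and 3.10 to 1.32, 0.898 and 1.27 TPM (-0.72 ± 0.18, adjusted p = 0.00328). These 2 genes also had no overlap between groups.

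In all, 6 of the 8 genes tested in CCRF-CEM were lower and 0 higher, where 20.9% of all genes tested were lower and 28.9% higher. Their median change was -0.77, against 0.05 over all genes tested. EGR1, a zinc finger immediate early factor, was at 0.787 to 1.39 TPM in DMSO and 0.375 to 1.1 with BRM014 (-0.26 ± 0.17, adjusted p = 0.232). FOS had 1 to 5 reads per DMSO library and 0 to 3 per treated library, and FOSB and FOSL1 were below the filter of at least 1 TPM in at least 3 libraries. FOS passed that filter only through TALL-1.

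**Figure D1:**
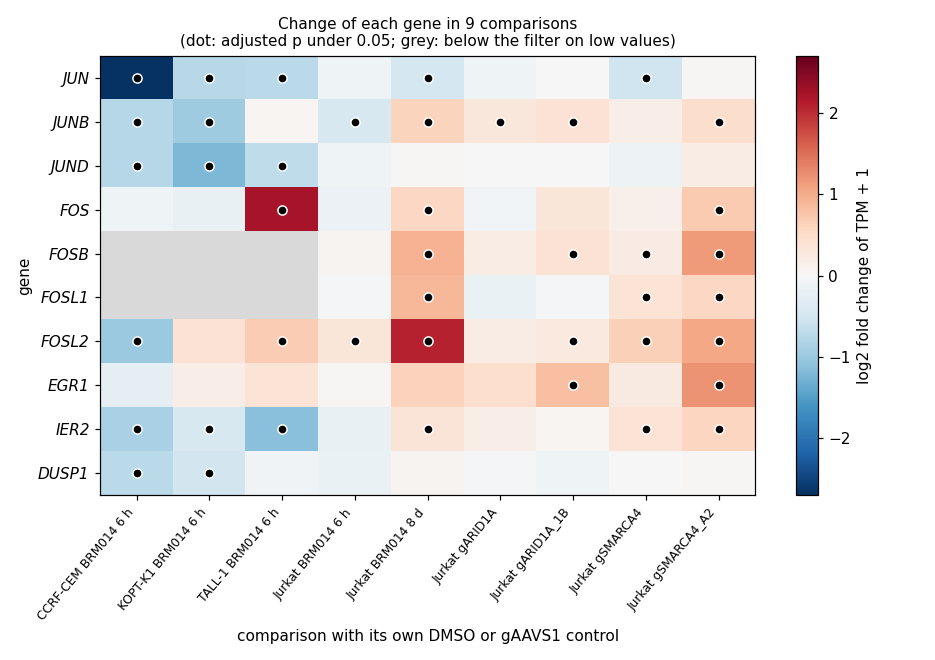
Change of each gene (rows) in the 9 comparisons with a DMSO or gAAVS1 control (columns), as log2 fold change of TPM + 1, with a dot where the adjusted p is under 0.05 and grey where a gene is below the filter. JUN in CCRF-CEM (-2.66), FOS in TALL-1 (2.22) and FOSL2 in Jurkat at 8 d (2.07) have the deepest colors.

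In KOPT-K1 cells 5 of 8 genes were lower and 0 higher at 6 h, where 15.2% of all genes tested were lower and 22.9% higher, among them all 3 JUN family genes. JUND was at 126, 134 and 139 TPM in DMSO and at 54.5, 59.4 and 56.0 with BRM014 (-1.22 ± 0.11, adjusted p = 7.27e-07). JUNB, the most abundant in KOPT-K1 of the 3 lines of its table, was at 90.9, 88.1 and 82.4 and then at 46.1, 44.7 and 42.7 TPM (-0.95 ± 0.14, adjusted p = 7.15e-05). For both genes the treated libraries were near 1 level and well below the controls. JUN was low to begin with, at 2.88, 2.66 and 1.66 TPM, and was at 1.02, 0.934 and 1.06 with BRM014 (-0.74 ± 0.17, adjusted p = 0.00277). That fall rested on 26 to 30 reads per treated library and was not called in a fit on reads recovered from the TPM values (limma-voom, -1.22, adjusted p = 0.0708). Adding 1 TPM compresses so low a gene: with a pseudocount of 0.1 the JUN change was -1.15, against -1.23 for JUND and -0.97 for JUNB, so the 3 genes are not ranked here.

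IER2 fell from 72.7, 74.7 and 79.0 to 59.0, 50.7 and 58.1 TPM in KOPT-K1 (-0.43 ± 0.14, adjusted p = 0.0258). DUSP1, higher in this line than in the other lines of its table, went from 14.0, 13.7 and 14.0 to 9.73, 8.18 and 10.9 TPM (-0.50 ± 0.18, adjusted p = 0.037). Both calls were lost when single libraries were left out, IER2 with KOPT-K1 DMSO replicate 2 or 3 or BRM014 replicate 2 left out (adjusted p up to 0.097) and DUSP1 with any library left out except BRM014 replicate 3 (adjusted p up to 0.138). FOSL2 was at 1.21, 1.06 and 0.903 TPM in DMSO and 1.66, 1.51 and 1.93 with BRM014, with no overlap but no call (0.39 ± 0.18, adjusted p = 0.101). EGR1 was at 2.91 to 3.86 and 3.12 to 4.58 TPM (0.18 ± 0.17, adjusted p = 0.486), and FOS had 2 to 7 reads in each library of this line.

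TALL-1 cells differed from both, with FOS and FOSL2 higher and JUN, JUND and IER2 lower. FOS, the founding FOS family subunit, was at 1.73, 2.60 and 1.09 TPM in DMSO and at 11.0, 8.67 and 17.0 with BRM014, so the lowest treated library was above the highest control. The change was 2.22 ± 0.20 (4.66-fold on the TPM + 1 scale, adjusted p = 2.75e-07), the 18th largest rise among the genes tested. FOSL2 rose from 0.652, 0.879 and 1.06 to 1.69, 1.23 and 3.36 TPM (0.68 ± 0.18, adjusted p = 0.00591). BRM014 replicate 3 was the highest of its group for JUN, JUNB, JUND, FOS, FOSB, FOSL2, IER2 and DUSP1. With the spread taken from the TALL-1 groups alone the FOSL2 rise was not called (adjusted p = 0.0731). FOSB, untested here, was at 0.175, 0 and 0.116 TPM (10 reads in all) in DMSO and 0.485, 0.394 and 0.761 (53 reads) with BRM014.

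JUN in TALL-1 fell from 17.5, 18.0 and 21.0 to 9.66, 11.4 and 11.7 TPM (-0.73 ± 0.17, adjusted p = 0.0024). JUND fell from 163, 138 and 149 to 87.0, 92.6 and 96.7 TPM (-0.69 ± 0.11, adjusted p = 0.000125). IER2 fell most of the 3, from 53.6, 46.8 and 51.9 to 22.1, 21.6 and 24.4 TPM (-1.13 ± 0.14, adjusted p = 1e-05). In each case the groups did not overlap. JUNB was at 16.4, 18.8 and 19.3 TPM in DMSO and 16.1, 15.7 and 26.1 with BRM014 (0.05 ± 0.14, adjusted p = 0.841). EGR1 (0.38 ± 0.17, adjusted p = 0.0944) and DUSP1 (-0.10 ± 0.18, adjusted p = 0.711) were not called. The 2 genes higher and 3 lower of 8 stand beside 26.6% of all genes higher and 19.3% lower.

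The differences between lines were tested in the same fit, as the BRM014 effect in 1 line minus that in another. JUN fell more in CCRF-CEM than in KOPT-K1 (-1.92 ± 0.24, adjusted p = 5.94e-05) and than in TALL-1 (-1.93 ± 0.24, adjusted p = 3.95e-05). Between KOPT-K1 and TALL-1 the difference for JUN was -0.01 ± 0.24 (adjusted p = 0.987). This value depends on the pseudocount, since JUN was low in KOPT-K1: it was -0.37 with 0.1 TPM added (adjusted p = 0.418) and -0.45 on recovered reads (adjusted p = 0.658), not called in either. On recovered reads, the larger fall of JUN in CCRF-CEM than in KOPT-K1 was -1.56 and not called (adjusted p = 0.0657). FOSL2 changed in opposite directions: its effect was lower in CCRF-CEM than in KOPT-K1 (-1.39 ± 0.25, adjusted p = 0.00143) and than in TALL-1 (-1.67 ± 0.25, adjusted p = 0.00023), although the KOPT-K1 value itself was not called.

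The FOS effect in TALL-1 differed from that in CCRF-CEM (CCRF-CEM minus TALL-1, -2.35 ± 0.28, adjusted p = 2.47e-05) and from KOPT-K1 (KOPT-K1 minus TALL-1, -2.41 ± 0.28, adjusted p = 2.14e-05). Only TALL-1 libraries reached 1 TPM of FOS, and the other 2 lines had 0 to 7 reads per library, so these contrasts are in effect the TALL-1 rise set against a gene near 0 and say little of FOS in the other lines. The JUNB effect was lower in CCRF-CEM (-0.82 ± 0.20, adjusted p = 0.00854) and in KOPT-K1 (-1.0 ± 0.20, adjusted p = 0.00205) than in TALL-1. JUND fell more in KOPT-K1 than in TALL-1 (-0.52 ± 0.16, adjusted p = 0.03), and IER2 fell less (0.70 ± 0.20, adjusted p = 0.0211, or 0.66 and 0.0505 without KOPT-K1 BRM014 replicate 1). The JUND difference lost its call when any of 8 of the 12 libraries was left out (adjusted p up to 0.0757). In the 3 line pairs, in the order CCRF-CEM minus KOPT-K1, CCRF-CEM minus TALL-1 and KOPT-K1 minus TALL-1, 2, 4 and 4 of 8 genes differed, where 18.3%, 20.4% and 21.4% of all genes did.

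**Figure D2:**
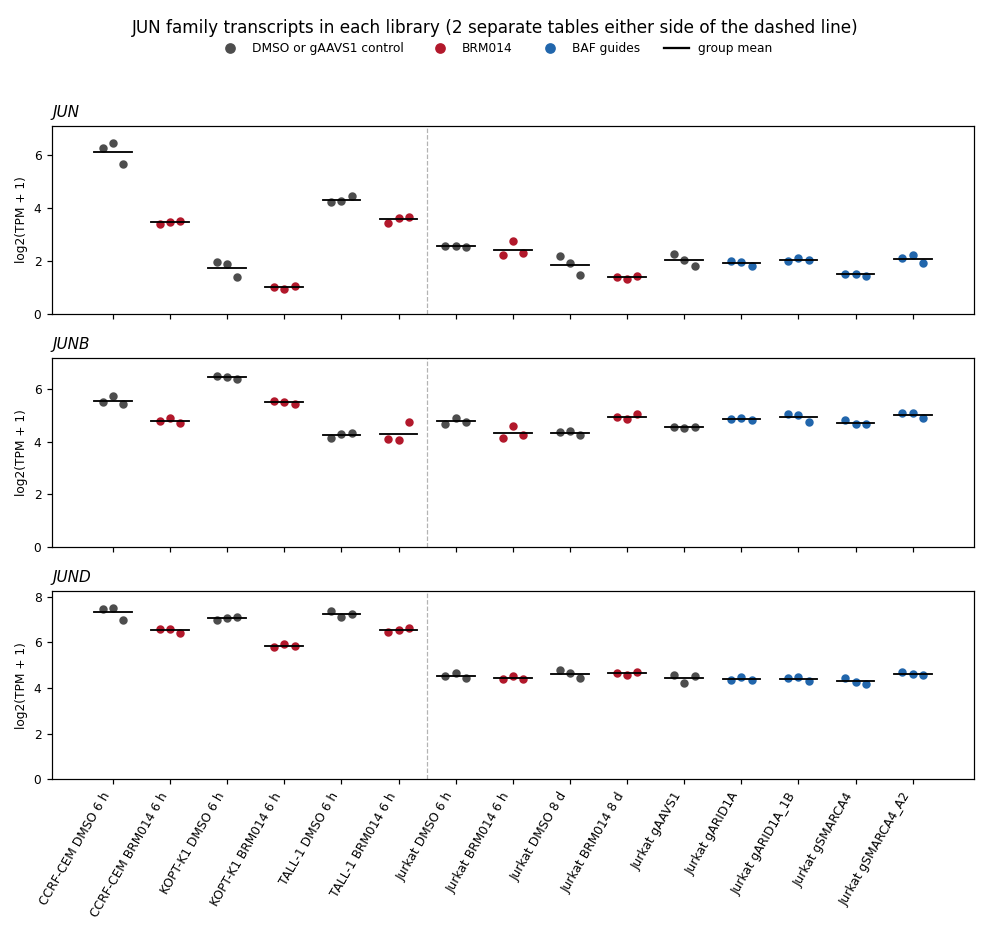
JUN, JUNB and JUND in each library as log2(TPM + 1), with groups along the horizontal axis, points for libraries and bars for group means. JUN falls from a mean of 70.8 to 10.0 TPM in CCRF-CEM, and in Jurkat its libraries lie between 1.48 and 5.68 TPM.

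The lines also differed before treatment, and the order of levels differed by gene. Mean JUN in DMSO was 70.8 ± 19.4 TPM (SD, n = 3) in CCRF-CEM, 18.8 ± 1.92 in TALL-1 and 2.40 ± 0.65 in KOPT-K1, and no libraries of these lines overlapped. The differences were 4.38 ± 0.17 between CCRF-CEM and KOPT-K1 (adjusted p = 3.41e-12), 1.82 ± 0.17 between CCRF-CEM and TALL-1 (adjusted p = 1.26e-07) and -2.56 ± 0.17 between KOPT-K1 and TALL-1 (adjusted p = 2e-09). With BRM014, mean JUN was 10.0 ± 0.44 TPM in CCRF-CEM and 10.9 ± 1.12 in TALL-1, and libraries of the 2 lines overlapped. Jurkat, in its own table and set beside these without a test, had 4.85 ± 0.12 TPM in the 6 h DMSO group.

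JUNB had another order, with 87.1 ± 4.30 TPM in KOPT-K1, 46.4 ± 5.35 in CCRF-CEM and 18.2 ± 1.52 in TALL-1, all neighbours differing (adjusted p of 4.76e-05 and 6.9e-07). JUND was at 160 ± 31.6, 150 ± 12.6 and 133 ± 6.55 TPM in CCRF-CEM, TALL-1 and KOPT-K1, and no pair of lines was called different. FOSL2 was at 9.59 ± 1.09 TPM in CCRF-CEM, 1.06 ± 0.15 in KOPT-K1 and 0.864 ± 0.21 in TALL-1, where only CCRF-CEM stood apart from both. DUSP1 was at 13.9 ± 0.16 TPM in KOPT-K1, 2.58 ± 0.48 in CCRF-CEM and 2.51 ± 0.61 in TALL-1, and EGR1 was highest in KOPT-K1 at 3.34 ± 0.48 TPM. IER2 was at 102 ± 21.4, 75.5 ± 3.21 and 50.8 ± 3.55 TPM in CCRF-CEM, KOPT-K1 and TALL-1, the first pair overlapping (adjusted p = 0.0211, and up to 0.111 with single libraries left out, which ends the call without CCRF-CEM replicate 1 or 2 or KOPT-K1 replicate 1 or 2). In the 3 line pairs, taken in the order used above, 6, 5 and 6 of 8 genes differed in DMSO, where 62.5%, 67.6% and 70.5% of all genes did.

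Jurkat cells changed little at 6 h. JUN was at 4.91, 4.94 and 4.71 TPM in DMSO and 3.73, 5.68 and 3.96 with BRM014 (-0.12 ± 0.14, adjusted p = 0.536), with treated libraries on both sides of the controls. Only 2 of 10 genes were called, 1 in each direction, where 26.8% of all genes tested were higher and 20.7% lower. JUNB fell from 24.5, 29.1 and 25.6 to 16.6, 23.5 and 18.2 TPM (-0.43 ± 0.10, adjusted p = 0.000761). FOSL2 rose from 1.85, 2.27 and 1.70 to 2.51, 3.28 and 2.37 TPM (0.34 ± 0.09, adjusted p = 0.0042), a call lost with the spread of these 2 groups alone (adjusted p = 0.072). The other 8 genes had overlapping groups, with JUND at 20.9 to 24.3 TPM in DMSO and 19.8 to 22.1 with BRM014.

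JUN, JUNB, JUND, FOS, FOSL2, EGR1, IER2 and DUSP1 were all highest in replicate 2 of both Jurkat 6 h groups. EGR1 in DMSO was at 1.47, 5.19 and 1.42 TPM. Without number 2 of both groups JUNB changed by -0.50 and FOSL2 by 0.31, both still called. The effect of BRM014 on JUN in Jurkat was not tested against the other lines, since the tables were prepared apart.

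After 8 d of BRM014 the Jurkat pattern was different, with FOSL2 and FOSB higher and JUN lower, the JUN call being lost in some settings. FOSL2 was at 1.59, 1.87 and 2.2 TPM in the 8 d DMSO libraries and at 11.6, 10.8 and 10.9 with BRM014, a wide gap with little spread on either side. The change was 2.07 ± 0.09 (4.20-fold on the TPM + 1 scale, adjusted p = 3.74e-14), the 71st largest rise among 17936 genes tested. FOSB, a FOS family subunit whose splice form delta-FosB is known for its stability, rose from 0.899, 0.900 and 0.719 to 2.39, 2.59 and 2.63 TPM (0.94 ± 0.07, adjusted p = 3.38e-10). FOSL1, known as FRA1, had 3 or 4 reads per DMSO library and 24 to 35 with BRM014, at 0.123, 0.142 and 0.160 and then 1.13, 1.33 and 0.959 TPM (0.90 ± 0.11, adjusted p = 3.2e-07). FOS was at 0.502, 0.186 and 0.209 and then 0.70, 1.29 and 0.803 TPM (0.57 ± 0.13, adjusted p = 0.000925). For each of these genes the groups did not overlap. FOSL1 reached 1 TPM in 5 Jurkat libraries, 2 of BRM014 at 8 d, 2 of gSMARCA4_A2 and 1 of gSMARCA4, and FOS in 4, of which 1 was of BRM014 at 8 d and 2 of gSMARCA4_A2. FOSL1 was therefore tested only through groups in which it was high, and FOS mostly so, and their calls in those groups are no support for a rise of the family.

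JUNB was also higher at 8 d, at 19.9, 20.3 and 17.9 TPM in DMSO and 29.7, 28.2 and 32.1 with BRM014 (0.61 ± 0.10, adjusted p = 1.21e-05). IER2 was higher at 57.8, 60.7 and 63.6 against 56.9, 47.6 and 39.0 TPM (0.35 ± 0.10, adjusted p = 0.00376). JUN was lower, at 3.61, 2.77 and 1.76 TPM in DMSO and 1.64, 1.48 and 1.74 with BRM014 (-0.47 ± 0.14, adjusted p = 0.00707). The highest treated JUN value lay just below the lowest control, and without DMSO replicate 1 the change was -0.30 (adjusted p = 0.0697). The JUN and IER2 calls were also lost with the spread of these groups alone (adjusted p = 0.0639 and 0.056). JUND, EGR1 and DUSP1 were not called (0.03 ± 0.09, 0.62 ± 0.29 and 0.08 ± 0.10). Thus 6 of 10 genes were higher and 1 lower, where 36.9% of all genes were higher and 23.0% lower. Without FOS and FOSL1 the counts were 4 higher and 1 lower of 8. EGR1, at 2.07, 0.750 and 0.351 TPM in DMSO, was called higher without DMSO replicate 1 (0.95, adjusted p = 0.00703). It was also called higher with a pseudocount of 0.1 (1.14, adjusted p = 0.0328).

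**Figure D3:**
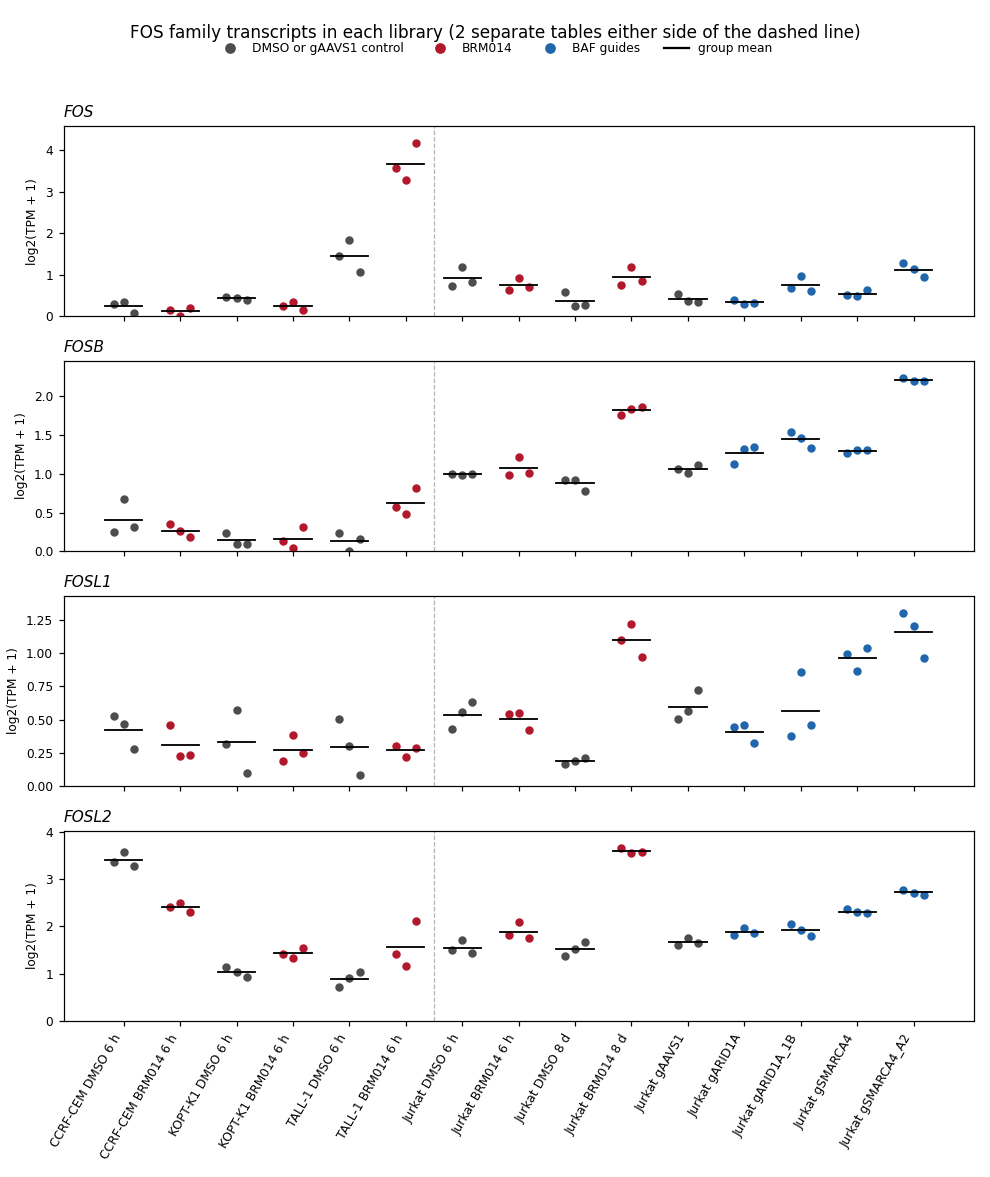
FOS, FOSB, FOSL1 and FOSL2 in each library as log2(TPM + 1), with points for libraries and bars for group means. FOS is highest in TALL-1 with BRM014 (mean 12.2 TPM), and FOSL2 in Jurkat with BRM014 at 8 d (mean 11.1 TPM) and CCRF-CEM in DMSO (mean 9.59 TPM).

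The difference between the 8 d and 6 h effects in Jurkat was itself called for 6 of 10 genes, all higher at 8 d. Of all genes, 44.2% differed. Without FOS and FOSL1, tested mostly or only through groups in which they were high, 4 of 8 genes differed. For FOSL2 the difference was 1.74 ± 0.13 (adjusted p = 8.67e-10) and for JUNB 1.04 ± 0.14 (adjusted p = 2.12e-06). It was 0.94 ± 0.16 for FOSL1 (adjusted p = 4.03e-05) and 0.86 ± 0.10 for FOSB (adjusted p = 6.76e-07). It was 0.73 ± 0.19 for FOS (adjusted p = 0.00339) and 0.55 ± 0.14 for IER2 (adjusted p = 0.0026). JUNB therefore changed sign, lower at 6 h and higher at 8 d. For JUN the difference was -0.36 ± 0.20 and was not called (adjusted p = 0.166).

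The control level moved as well. In DMSO at 8 d compared with 6 h, JUN (-0.69 ± 0.14, adjusted p = 0.000842), JUNB (-0.43 ± 0.10, adjusted p = 0.00162), FOS (-0.54 ± 0.13, adjusted p = 0.00327), FOSL1 (-0.35 ± 0.11, adjusted p = 0.0175) and EGR1 (-0.78 ± 0.29, adjusted p = 0.0417) were lower, 5 of 10 genes where 35.3% of all genes differed. EGR1 overlapped between these groups, and without 6 h DMSO replicate 2 its change was -0.33 (adjusted p = 0.3); leaving out 8 d DMSO replicate 2 or 3 also ended the call. FOSL1 was not called without 6 h DMSO replicate 3 or 8 d DMSO replicate 1, and FOS and FOSL1 were not called with the spread of these groups alone (adjusted p = 0.0626 and 0.0633). Without FOS and FOSL1, 3 of 8 genes were lower in DMSO at 8 d than at 6 h. The 8 d and 6 h groups each have their own DMSO controls. Time in culture and collection cannot be told apart between the 2 control groups.

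With guides the same genes were followed in Jurkat on day 10, each guide group against the same gAAVS1 libraries, so the guide comparisons share their controls. Depletion labelled SMARCA4 and SMARCA2 gave the most calls, 7 of 10 higher and 0 lower, where 40.9% of all genes were higher and 21.1% lower. FOSB was at 1.09, 1.02 and 1.17 TPM with gAAVS1 and at 3.72, 3.58 and 3.59 with gSMARCA4_A2 (1.15 ± 0.07, adjusted p = 2.15e-11). FOSL2 was at 2.05, 2.37 and 2.13 and then at 5.86, 5.55 and 5.36 TPM (1.05 ± 0.09, adjusted p = 2.32e-09). EGR1 was at 0.795, 0.524 and 0.595 and then at 3.02, 2.63 and 2.75 TPM (1.22 ± 0.29, adjusted p = 0.00114). These 3 genes were well apart from the controls in all 3 libraries.

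FOS rose from 0.449, 0.300 and 0.271 to 1.44, 1.19 and 0.915 TPM with gSMARCA4_A2 (0.70 ± 0.13, adjusted p = 0.000113), and FOSL1 from 0.421, 0.481 and 0.648 to 1.46, 1.30 and 0.946 (0.56 ± 0.11, adjusted p = 0.000152). Both passed the filter largely through this group and that of BRM014 at 8 d, and without them 5 of 8 genes were higher. IER2 (0.58 ± 0.10, adjusted p = 2.58e-05) and JUNB (0.47 ± 0.10, adjusted p = 0.000232) also rose, to 67.9 to 72.3 and 28.7 to 33.2 TPM. JUN was at 3.85, 3.07 and 2.53 TPM with gAAVS1 and 3.30, 3.62 and 2.78 with gSMARCA4_A2 (0.04 ± 0.14, adjusted p = 0.839), with the groups overlapping. The median change over all genes tested was itself 0.11 in this comparison. Rescaling libraries by median ratios shifts these groups by 0.16 against each other, and under it the same 7 genes were called, each by a smaller change.

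With gSMARCA4 alone, 4 of 10 genes were higher and JUN lower, where 25.1% of all genes were higher and 15.8% lower. Without FOS and FOSL1 the counts were 3 higher and 1 lower of 8. JUN was at 1.86, 1.88 and 1.72 TPM, all below the lowest gAAVS1 library (-0.55 ± 0.14, adjusted p = 0.00404). FOSL2 was at 4.13, 3.91 and 3.88 TPM (0.64 ± 0.09, adjusted p = 6.63e-06). FOSL1 (0.37 ± 0.11, adjusted p = 0.0105), IER2 (0.38 ± 0.10, adjusted p = 0.00374) and FOSB (0.23 ± 0.07, adjusted p = 0.0146) were higher by less. FOSB was not called without gAAVS1 replicate 2 (0.21, adjusted p = 0.0585). EGR1 was at 0.795, 1.08 and 0.962 TPM, its lowest library about level with the highest of gAAVS1, and was not called (0.25 ± 0.29, adjusted p = 0.534).

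Set directly against gSMARCA4, gSMARCA4_A2 had 7 of 10 genes higher and 0 lower, where 38.8% of all genes differed. Without FOS and FOSL1 the counts were 6 higher and 0 lower of 8. FOSB differed by 0.91 ± 0.07 (adjusted p = 1.06e-08), EGR1 by 0.97 ± 0.29 (adjusted p = 0.0126), JUN by 0.58 ± 0.14 (adjusted p = 0.00296) and FOS by 0.57 ± 0.13 (adjusted p = 0.00204). FOSL2 (0.41 ± 0.09, adjusted p = 0.00139), JUND (0.34 ± 0.09, adjusted p = 0.0061) and JUNB (0.30 ± 0.10, adjusted p = 0.0194) were higher too. The JUNB difference was 0.18 and not called under median-ratio rescaling (adjusted p = 0.104), which shifts these groups by 0.11, and it was also lost without gSMARCA4 replicate 2 or 3 or gSMARCA4_A2 replicate 1 or 2 (adjusted p up to 0.0754).

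The ARID1 guides gave 1 call with gARID1A and 4 with gARID1A_1B. With gARID1A only JUNB was called, at 28.3, 28.6 and 27.1 TPM against 22.8, 22.2 and 22.5 (0.30 ± 0.10, adjusted p = 0.0282), 1 higher and 0 lower of 10 where 7.72% of all genes were higher and 13.2% lower. That call was lost on leaving out any gAAVS1 library or gARID1A replicate 1 or 2 (adjusted p up to 0.0864). EGR1 with gARID1A was at 1.06, 1.19 and 1.51 TPM, above all gAAVS1 libraries but not called (0.46 ± 0.29, adjusted p = 0.289). With the compared groups alone it was called (adjusted p = 0.0275). With gARID1A_1B 4 of 10 genes were higher and 0 lower, where 17.0% of all genes were higher and 23.1% lower. EGR1 was at 2.00, 1.91 and 1.72 TPM (0.82 ± 0.29, adjusted p = 0.0307), above all gAAVS1 libraries, and JUNB was at 32.0, 31.6 and 26.2 (0.39 ± 0.10, adjusted p = 0.00256). FOSB (0.38 ± 0.07, adjusted p = 0.000243) and FOSL2 (0.26 ± 0.09, adjusted p = 0.0283) were also higher.

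The EGR1 call with gARID1A_1B was lost without gAAVS1 replicate 2 or 3 or any gARID1A_1B library (adjusted p up to 0.0848). The FOSL2 call was lost without gAAVS1 replicate 1 or 3 or gARID1A_1B replicate 1 or 2 (adjusted p up to 0.137). Between gARID1A_1B and gARID1A only FOS differed, at 0.607, 0.950 and 0.529 against 0.317, 0.225 and 0.250 TPM (0.42 ± 0.13, adjusted p = 0.0301), 1 of 10 genes where 20.9% of all genes did. Without gARID1A_1B replicate 2, its highest library, that difference was 0.31 (adjusted p = 0.161), and it was also lost without gARID1A replicate 2 or 3. DUSP1 was at 4.42 to 6.24 TPM in all guide libraries and was called with no guide.

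**Figure D4:**
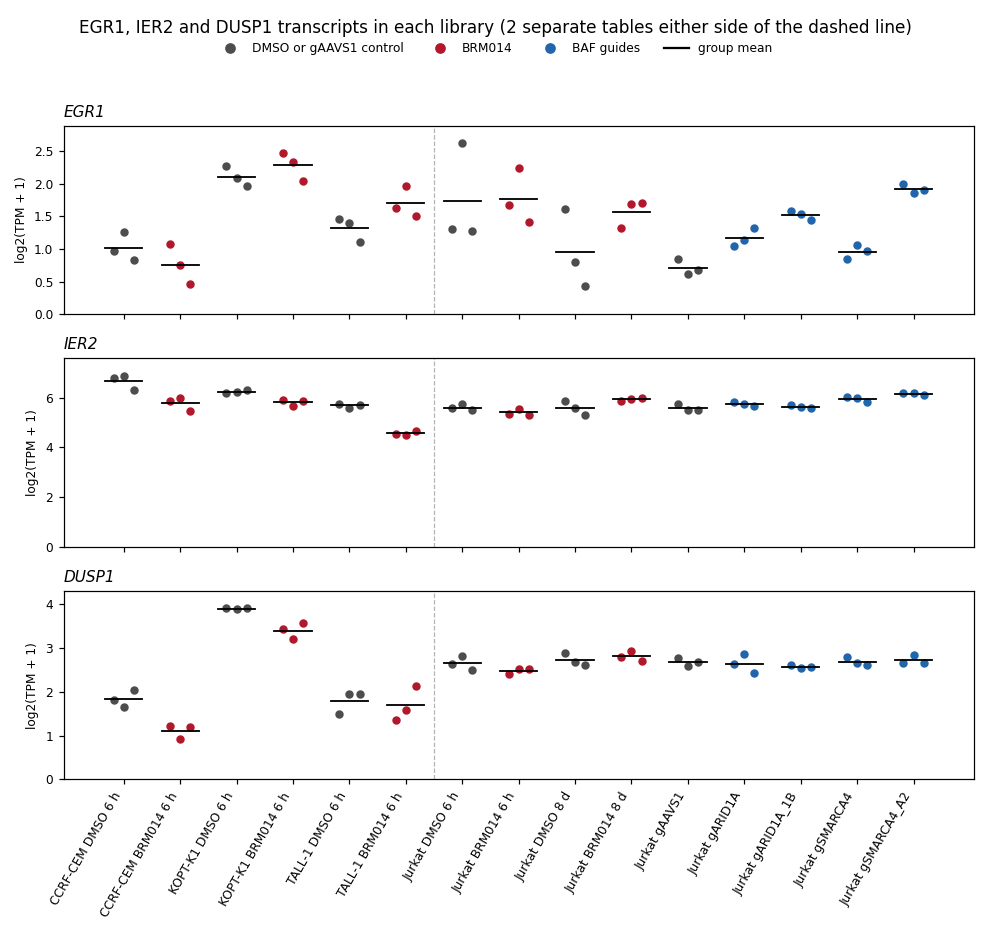
EGR1, IER2 and DUSP1 in each library as log2(TPM + 1), with points for libraries and bars for group means. The EGR1 mean is above that of gAAVS1 in every guide group, most in gARID1A_1B (mean 1.88 TPM) and gSMARCA4_A2 (mean 2.80 TPM). IER2 falls in all 3 lines left of the dashed line.

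The levels of the subunits were also summed, since TPM is corrected for gene length and can be compared between genes. JUN family genes made up most of the AP-1 subunit RNA in every group, and FOS family genes were 0.796% ± 0.17 (SD, n = 3) of it in KOPT-K1 in DMSO, the lowest, and 22.0% ± 1.43 in Jurkat with BRM014 at 8 d, the highest. In TALL-1 the FOS family share was 1.60% ± 0.44 in DMSO and 10.8% ± 2.84 with BRM014. In Jurkat it was 6.53% ± 0.93 in DMSO at 8 d, 8.23% ± 0.67 with gAAVS1, 13.0% ± 0.81 with gSMARCA4 and 16.6% ± 0.44 with gSMARCA4_A2. These shares describe RNA and were not tested, and between Jurkat and the other lines the kit cannot be told apart from the line. They are set by the genes already described.

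JUND was the largest part of JUN family RNA in CCRF-CEM, KOPT-K1 and TALL-1, and in Jurkat JUNB or JUND was, depending on the group. In Jurkat strand was not kept, so JUNB reads cannot be told apart from HOOK2 reads where their exons overlap. JUND was 57.7% ± 1.53 of JUN family TPM in CCRF-CEM in DMSO and 80.1% ± 2.30 in TALL-1, and in Jurkat it was 41.7% ± 0.89 in DMSO at 6 h, where JUNB was 49.3% ± 1.23, and 51.8% ± 1.11 in DMSO at 8 d, where JUNB was 42.4% ± 2.50. JUN was 25.3% ± 2.19 of JUN family TPM in CCRF-CEM in DMSO and 7.87% ± 0.80 with BRM014, and the whole JUN family sum was 277 ± 54.8 and 128 ± 7.92 TPM. In KOPT-K1 and TALL-1 the JUN share was similar in both groups, at 1.08% and 0.984% and at 10.1% and 8.94%. FOSL2 was 91.9% ± 2.42 of FOS family TPM in CCRF-CEM in DMSO but 13.4% ± 2.08 in TALL-1 with BRM014, where FOS led.

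**Figure D5:**
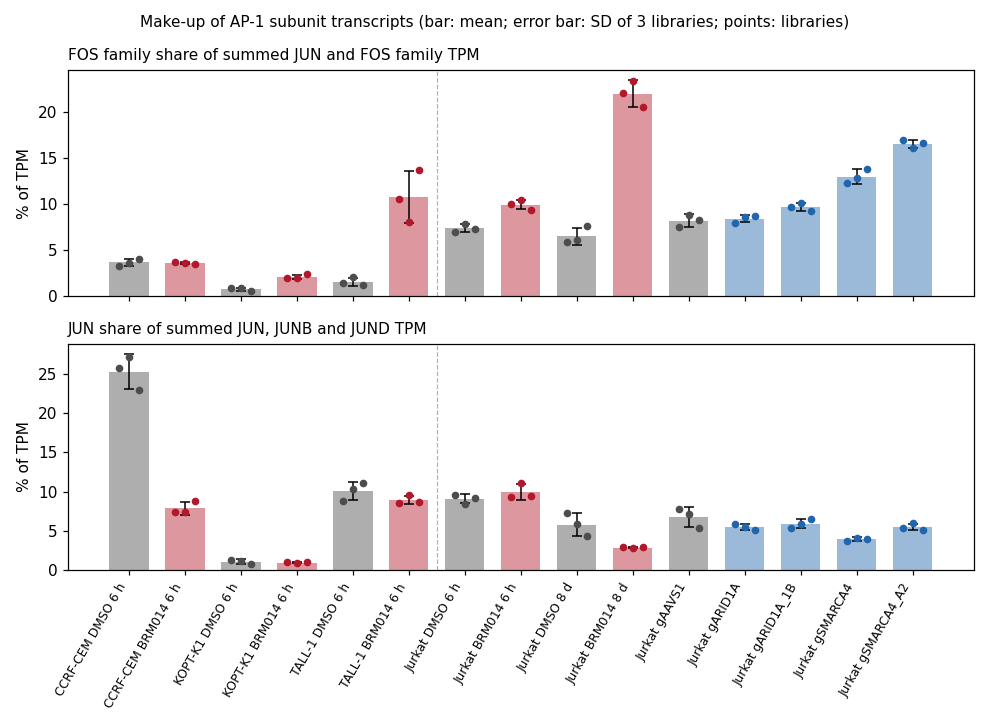
Share of FOS family genes in summed JUN and FOS family TPM (top) and share of JUN in summed JUN, JUNB and JUND TPM (bottom), in percent, as means with SD over 3 libraries and points for libraries. The FOS family share is highest in Jurkat with BRM014 at 8 d (22.0%), and the JUN share drops from 25.3% to 7.87% in CCRF-CEM.

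Other bZIP genes whose products can pair with AP-1 subunits moved mostly downward at 6 h. Of 11 tested in the 3 lines of the second table, 2 were higher and 5 lower in CCRF-CEM (median change -0.28). The counts were 2 and 7 in KOPT-K1 (-0.72) and 2 and 6 in TALL-1 (-0.26). Of 9 tested in Jurkat, 1 was higher and 4 lower (-0.18). Over all genes tested, 28.9% were higher and 20.9% lower in CCRF-CEM (median change 0.05). The shares were 22.9% and 15.2% in KOPT-K1 (0.04), 26.6% and 19.3% in TALL-1 (0.03) and 26.8% and 20.7% in Jurkat (0.04). BATF, which pairs with JUN proteins at sites shared with IRF4 in lymphocytes, fell from 6.06 ± 0.79 to 1.1 ± 0.57 TPM in CCRF-CEM (-1.78 ± 0.16, adjusted p = 2.59e-07). It also fell in TALL-1 (-1.56 ± 0.16), KOPT-K1 (-1.19 ± 0.16) and Jurkat at 6 h (-1.08 ± 0.09). BATF3 fell from 34.3 ± 2.24 to 8.34 ± 2.28 TPM in CCRF-CEM (-1.94 ± 0.14). ATF3, a stress-induced repressor and JUN partner, rose with all 4 guides in Jurkat, by 1.05 ± 0.23 with gARID1A, 1.34 ± 0.23 with gARID1A_1B, 1.51 ± 0.23 with gSMARCA4 and 1.46 ± 0.23 with gSMARCA4_A2, against a gAAVS1 level of 7.54 ± 2.50 TPM. With BRM014 it fell, to 7.78 ± 0.52 TPM in Jurkat at 8 d (-0.75 ± 0.23, adjusted p = 0.0091) and from 1.97 ± 0.54 to 0.572 ± 0.18 TPM in TALL-1 (-0.91 ± 0.16, adjusted p = 0.000199).

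Other immediate early genes did not move as 1 group. Of 16 tested, 5 were higher and 4 lower in TALL-1, 3 and 7 in CCRF-CEM and 4 and 4 in KOPT-K1. Of 22 in Jurkat, 4 were higher and 9 lower at 6 h and 12 higher and 5 lower at 8 d. Of all genes tested, 26.6% were higher and 19.3% lower in TALL-1, 28.9% and 20.9% in CCRF-CEM and 22.9% and 15.2% in KOPT-K1. In Jurkat the shares were 26.8% and 20.7% at 6 h and 36.9% and 23.0% at 8 d. BTG2, an antiproliferative gene, rose from 28.2 ± 0.93 to 149 ± 10.4 TPM in CCRF-CEM and from 31.5 ± 2.01 to 290 ± 23.2 TPM in TALL-1. TRIB1, a pseudokinase gene, rose from 0.213 ± 0.052 to 8.89 ± 2.00 TPM in CCRF-CEM and by 4.19 ± 0.12 in Jurkat at 8 d. MYC fell from 193 ± 29.4 to 26.2 ± 2.62 TPM in CCRF-CEM (-2.83 ± 0.15, adjusted p = 1.7e-09). EGR2, a paralog of EGR1, rose by 0.97 ± 0.11 with gARID1A_1B and 1.40 ± 0.11 with gSMARCA4_A2, from 0.214 ± 0.051 TPM with gAAVS1.

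Genes that carry signals to AP-1 and those that dampen them were counted in the same way. Of 29 genes of the RAS, MAP kinase and serum response factor route, 12 were higher and 6 lower in Jurkat at 6 h, 14 and 3 in CCRF-CEM, 11 and 8 in TALL-1 and 7 and 6 in KOPT-K1. RPS6KA1, a kinase downstream of ERK, fell in all 4 lines at 6 h, with changes of -0.83 ± 0.05 (Jurkat), -1.25 ± 0.12 (CCRF-CEM), -1.44 ± 0.12 (KOPT-K1) and -1.46 ± 0.12 (TALL-1). MEF2D, which activates JUN among other genes, rose in all 9 comparisons, from 0.39 ± 0.05 with gARID1A to 1.73 ± 0.05 with gSMARCA4_A2. Of 12 feedback inhibitors, 2 were higher and 2 lower in TALL-1, 1 and 8 in CCRF-CEM and 1 and 7 in KOPT-K1. Of 13 in Jurkat, 1 was higher and 5 lower at 6 h and 6 higher and 4 lower at 8 d. Beside both lists, 28.9% of all genes tested were higher and 20.9% lower in CCRF-CEM. The shares were 22.9% and 15.2% in KOPT-K1 and 26.6% and 19.3% in TALL-1. In Jurkat they were 26.8% and 20.7% at 6 h and 36.9% and 23.0% at 8 d.

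DUSP6, a phosphatase for ERK that is itself induced by ERK, went opposite ways in KOPT-K1, at 189 ± 25.5 and 52.2 ± 9.01 TPM (-1.84 ± 0.25, adjusted p = 4.1e-05), and TALL-1, at 13.1 ± 1.07 and 26.4 ± 1.05 TPM (0.96 ± 0.25, adjusted p = 0.00565). The difference between these effects was not tested. SPRY4, an inhibitor of RAS signalling, rose from 2.25 ± 1.08 to 29.2 ± 0.60 TPM in Jurkat at 8 d (3.27 ± 0.16, adjusted p = 4.29e-13). A list of T cell activation genes that depend on AP-1 and NFAT also held the NFAT genes NFATC1, NFATC2 and NFATC3 themselves. Of 6 tested in Jurkat at 6 h, 0 were higher and 4 lower, NFATC2 among the latter. Of 9 tested in the remaining lines, 1 was higher and 5 lower in CCRF-CEM, 1 and 5 in KOPT-K1 and 1 and 1 in TALL-1. Over all genes tested, 26.8% were higher and 20.7% lower in Jurkat at 6 h and 28.9% and 20.9% in CCRF-CEM. The shares were 22.9% and 15.2% in KOPT-K1 and 26.6% and 19.3% in TALL-1. CD69, an early activation marker, rose in TALL-1 (1.40 ± 0.18), in Jurkat at 8 d (1.97 ± 0.24) and with gSMARCA4_A2 (1.52 ± 0.24), while CD40LG fell in Jurkat at 6 h from 334 ± 118 to 107 ± 34.3 TPM (-1.62 ± 0.19, adjusted p = 5.59e-07).

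Heat shock genes, read as a sign of handling, summed to 7337 to 10645 TPM in CCRF-CEM in DMSO and 6034 to 10201 with BRM014, and in Jurkat at 8 d to 3352 to 6572 TPM in DMSO and 4923 to 5285 with BRM014. Of 9 genes, 0 were higher and 3 lower in CCRF-CEM, 0 and 2 in KOPT-K1 and 0 and 4 in TALL-1. Of all genes tested, 28.9% were higher and 20.9% lower in CCRF-CEM, 22.9% and 15.2% in KOPT-K1 and 26.6% and 19.3% in TALL-1. In Jurkat the shares of all genes were 26.8% and 20.7% at 6 h and 36.9% and 23.0% at 8 d. There, 1 heat shock gene was higher and 2 lower at 6 h. At 8 d, 5 heat shock genes were higher and 1 lower, beside the higher FOSL2 and FOSB. With gSMARCA4_A2, gSMARCA4 and gARID1A_1B, where FOSL2 and FOSB were also higher, 2, 1 and 2 heat shock genes were higher and 3, 0 and 2 lower. Of all genes tested, 40.9%, 25.1% and 17.0% were higher and 21.1%, 15.8% and 23.1% lower in these comparisons. Among those higher at 8 d were BAG3 (1.17 ± 0.09), HSPA1B (0.45 ± 0.17) and HSPA1A (0.39 ± 0.16), which encode a chaperone partner and inducible HSP70 proteins. Their part in the results was not tested.

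The genes whose log2(TPM + 1) pattern was most like JUN over the 18 libraries of CCRF-CEM, KOPT-K1 and TALL-1, out of 11058 compared, were PTPRF (Pearson r = 0.97), YTHDF1 (0.97), TUBB2B (0.97), YY1 (0.96) and RAP1GAP2 (0.96). These points share 3 lines, so the values mainly follow the order of the lines. PTPRF was at 32.8 ± 1.14 TPM in CCRF-CEM in DMSO and 10.7 ± 0.52 with BRM014, 17.1 ± 0.76 and 11.2 ± 1.52 in TALL-1, and 1.49 ± 0.11 and 0.787 ± 0.068 in KOPT-K1. JUND had r = 0.69 with JUN, FOSL2 0.64, DUSP1 -0.70 and EGR1 -0.73. Over the 27 Jurkat libraries the highest were COQ7 (0.82), ADAL (0.81), TSTD1 (0.81), CHURC1-FNTB (0.80) and DCAF11 (0.79), and FOSL2 had -0.58. In GENCODE v29, JUNB shares exon bases with HOOK2 and IER2 with AC011446.2, so in Jurkat, where strand was not kept, reads of these pairs cannot be told apart.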

How the data were processed

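Poly(A) RNA of 45 libraries was measured by RNA-seq. The authors deposited TPM values per gene, with Jurkat in 1 table and the other 3 lines in another; the submitters' processing notes name HISAT2 2.2.1, featureCounts 2.0.3, DESeq2 1.38.2 and build hg38, without saying how each was used. Per the labels' protocols the Jurkat libraries were made with a kit that does not keep strand and the others with one that does, so the tables were fitted apart and levels set across them were not tested. TPM values multiplied by gene length gave whole reads within 0.01 for 100% of values; these reads served for depth and for 1 alternative test.

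The filter kept genes that reached 1 TPM in 3 or more libraries, and these were tested on log2(TPM + 1), all groups of a table in 1 fit, with limma 3.58.1 in R 4.3.3 (moderated by trend, robust), Benjamini-Hochberg adjustment over all genes tested and a threshold of 0.05. Fold changes on this scale understate those of low genes. Figures were drawn with matplotlib 3.10.9. The procedure was tested on simulated data. P-values measure the spread between libraries that the labels call biological replicates. Alternatives were a pseudocount of 0.1, no filter or one of 5 TPM, other scalings, limma-voom on recovered reads, other variance settings, fits on the compared groups alone, a replicate block and leaving out each library.

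Members and gene lists were chosen with earlier results of these data known. Other list genes are named where they passed the test with the largest changes of their list, except for an item that is not reported here. All 3 correlations between deviations of same-numbered BRM014 and DMSO libraries were over 0.1, the limit used for pairing, in CCRF-CEM (0.12, 0.29 and 0.45) and in no other comparison, with Jurkat at 6 h next (0.17, 0.30 and 0.09). This is a pairing by the data, not the labels. CCRF-CEM replicate 3 stood apart from replicates 1 and 2 in both groups. Chi-square per degree of freedom was 21.9 and 29.6 in DMSO and 27.0 and 38.9 with BRM014, against 5.03 and 5.23 between replicates 1 and 2. In the TALL-1 DMSO group replicate 3 stood further apart (48.0 and 47.2, against 3.43 between replicates 1 and 2). In Jurkat DMSO at 8 d replicate 1 stood apart (20.0 and 29.8, against 7.91 between replicates 2 and 3). TRBC1 and TRBC2 of the T cell markers were not analysed here.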

Additional observations from a re-analysis of the deposited data

Results flagged for a closer look

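These are the differences between effects that passed the test of the difference itself (limma, adjusted p under 0.05), as log2(TPM + 1) changes. The BRM014 effect at 6 h in CCRF-CEM minus that in KOPT-K1 was -1.92 for JUN and -1.39 for FOSL2. In CCRF-CEM minus TALL-1 it was -1.93 for JUN, -0.82 for JUNB, -2.35 for FOS and -1.67 for FOSL2. In KOPT-K1 minus TALL-1 it was -1.0 for JUNB, -0.52 for JUND, -2.41 for FOS and 0.70 for IER2. The Jurkat effect at 8 d minus that at 6 h was 1.04 for JUNB, 0.73 for FOS, 0.86 for FOSB, 0.94 for FOSL1, 1.74 for FOSL2 and 0.55 for IER2. The 3 pairs of lines share libraries, so these values are not independent of each other.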

How the results depend on the processing

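Of 88 changes called for these genes, 67 kept their call in every setting that gave them a value, 21 lost it in at least 1 and 0 reversed. The larger fall of JUN in CCRF-CEM than in KOPT-K1 was -1.56 and not called on recovered reads (limma-voom, adjusted p = 0.0657). With the filter at 5 TPM fewer of the genes were tested, and 3 were called in Jurkat at 8 d, 2 with gARID1A_1B, 2 with gSMARCA4, 3 with gSMARCA4_A2, 3 for 8 d minus 6 h, 0 for gARID1A_1B against gARID1A, 3 for gSMARCA4_A2 against gSMARCA4 and 1 for DMSO at 8 d against 6 h. For gARID1A, 2 genes were called under median-ratio rescaling, without trend and robust moderation, or with the compared groups alone, and 3 by limma-voom. With the compared groups alone, 1 gene was called in Jurkat at 6 h, 2 for gARID1A_1B against gARID1A and 2 for DMSO at 8 d against 6 h. Without mitochondrial genes 2 were called for gARID1A_1B against gARID1A. The cause of these moves was not tested.

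With the replicate block, 3 genes were called for gARID1A, 0 for gARID1A_1B against gARID1A and 1 for DMSO at 8 d against 6 h; these samples share only a number. In CCRF-CEM, where same-numbered libraries passed the limit used for pairing by the data, the block changed no call. In Jurkat at 6 h it added IER2 (adjusted p = 0.00742).

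Leaving out 1 library at a time gave 6 to 6 called genes in CCRF-CEM, 3 to 5 in KOPT-K1, 5 to 5 in TALL-1, 2 to 3 in Jurkat at 6 h, 7 to 7 at 8 d, 0 to 1 with gARID1A, 2 to 4 with gARID1A_1B, 5 to 5 with gSMARCA4 and 7 to 8 with gSMARCA4_A2. It gave 6 to 7 for 8 d minus 6 h, 0 to 2 for gARID1A_1B against gARID1A, 6 to 7 for gSMARCA4_A2 against gSMARCA4, 4 to 5 for DMSO at 8 d against 6 h, and 5 to 7, 5 to 6 and 6 to 6 for the line pairs in DMSO. Equal counts need not be the same genes. In Jurkat at 8 d without DMSO replicate 1, JUN was no longer called (adjusted p = 0.0697) and EGR1 was called (adjusted p = 0.00703). The JUN difference ranged from -2.16 to -1.75 for CCRF-CEM minus KOPT-K1, -2.17 to -1.77 for CCRF-CEM minus TALL-1 and -0.18 to 0.092 for KOPT-K1 minus TALL-1. Without number 3 of both CCRF-CEM groups, chosen after seeing the data, JUN differed by -2.18 and -2.20 from KOPT-K1 and TALL-1. FOS, FOSB and FOSL1 lay near or under 1 TPM in most groups, which limits their precision.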
